A study of Mus musculus with 9 samples.

Results

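Cells of the mouse ventral midbrain that carried both tdTomato and GFP (VGAT+Pitx3 cells) were compared, class of genes by class of genes, with cells that carried tdTomato (VGAT cells). The members are the wells of the 2 plates sorted for both proteins. A well counted as a cell if it had 2000 genes or more, no more than 50000 counts and a mitochondrial share below 15%. This left 575 VGAT+Pitx3 cells of 2035 kept cells in all. The other 1460 kept cells came from 7 VGAT plates. All mice were VGAT:Ai14:PITX3-GFP, so both populations carry every transgene: Cre under the Slc32a1 (VGAT) gene, a Cre-dependent tdTomato and a GFP reporter of Pitx3. The labels set the populations apart by the gate of the sort, and each population has plates of its own, so gate and plate cannot be told apart. At E16 there were 4 VGAT plates and 1 VGAT+Pitx3 plate, and at P0 there were 3 VGAT plates and 1 VGAT+Pitx3 plate. Cre recombination is permanent, so tdTomato marks a cell that expressed VGAT at any time before the sort, and brains of several litters were used without any source that ties a brain to a plate. Cells with both proteins were sorted on purpose to raise their number, so their share here is not their share in the tissue.

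Dopamine neurons of the ventral midbrain make dopamine from tyrosine with tyrosine hydroxylase and aromatic amino acid decarboxylase, load it into vesicles and take it up again at the membrane. GABA neurons around them make GABA with the glutamate decarboxylases Gad1 and Gad2 and load it with VGAT. The lineages are laid down by different transcription factors, Lmx1a, Foxa2, Nr4a2 and Pitx3 in dopamine neurons and Gata2, Gata3, Tal1 and Sox14 in midbrain GABA neurons, and some dopamine neurons of this region are known to release GABA or glutamate as well.

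SORT-seq counts distinct molecules per gene in single sorted cells, and counts of the kept cells were summed per plate. Sums were between 1435494 and 5408180 counts on the VGAT plates, and were 4609413 and 2336458 counts on the VGAT+Pitx3 plates at E16 (304 cells) and P0 (271 cells). A gene with 3 counts is therefore at 0.561 to 2.02 CPM (counts scaled to the summed counts of the plate, with edgeR TMM factors) depending on the plate, and a level below that is not resolved on a single plate. The cell names carry a second plate label, and for 6 plates of 9 its stage or its sort is not that of the first. It calls both VGAT+Pitx3 plates single sorts, and the first label was used. The level of Pitx3 follows the sort of the first label, and nothing here checks the stage, which differs between the labels for 4 VGAT plates. No mural, erythroid or cycling cell marker and 1 endothelial marker had enough counts to be tested, and these lists summed to at most 11.5 CPM on any plate. The summed microglia list (7 markers, of which C1qa, C1qb and Tyrobp had 0 counts on the VGAT+Pitx3 plates; 5 tested, 0 called) lay at 4.97 to 7.18 CPM on the VGAT+Pitx3 plates and 2.58 to 58.9 CPM on the VGAT plates, and the 6 pan-neuronal markers at 4785 to 5022 CPM on the VGAT+Pitx3 plates and 4590.2 to 5144 CPM on the VGAT plates. The summed list of 9 radial glia and astrocyte markers lay at 404 to 522 CPM on the VGAT+Pitx3 plates and 167 to 665 CPM on the VGAT plates, with 1 member called higher (Slc1a2) and 1 lower (Aldoc). The highest of these VGAT values is that of VGAT P0 replicate 2, and the other 6 VGAT plates, at 167 to 253 CPM, lay below both VGAT+Pitx3 plates. Fabp7, a radial glia marker of the list, was at 124 and 82.5 CPM against 2.71 to 7.4 CPM on those 6 plates and 246 CPM on VGAT P0 replicate 2 (adjusted p = 0.129). The list of 8 oligodendrocyte lineage markers (6 tested, 0 called) lay at 57.9 to 80.3 CPM on the VGAT+Pitx3 plates and 47 to 94.4 CPM on the VGAT plates, in which Olig1 (13.3 and 14.4 CPM) and Olig2 (9.72 and 4.04 CPM) were at up to 2.58 and 0.991 CPM on the same 6 VGAT plates and at 33.9 and 10.6 CPM on VGAT P0 replicate 2. Of 3 cholinergic markers Slc5a7 was called higher (3.84 and 4.04 CPM against 0.595 to 2.78 CPM, log2 fold change 1.74, adjusted p = 0.0448), while the defining markers Chat and Slc18a3 had 0 counts on the VGAT+Pitx3 plates. The part of such cells in the results was not tested.

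In every comparison the 2 VGAT+Pitx3 plates were set against the 7 VGAT plates while allowing for stage. The test was edgeR's quasi-likelihood test with Benjamini-Hochberg adjustment over all genes tested and a threshold of 0.05. Cells of a plate are not replicates, so n is 2 and 7 plates. Nothing says that plates of a group hold different animals, so the p-values measure the spread between plates. Levels are given for the VGAT+Pitx3 plates at E16 and P0, in this order, against the lowest, the median and the highest VGAT plate. Fold changes are given as log2 ± an approximate standard error, the size of the fold change divided by the square root of the test's F value. It is no fitted error and is unreliable for genes with few counts in a population. In sums of cells, fewer cells with a gene and fewer molecules per cell cannot be told apart. Pitx3 itself (ENSMUSG00000025229; GRCm38 chromosome 19, from 46135685 to 46148326 on the minus strand), the gene of the gate, was at 147 and 78 CPM against 0, 0 and 0.38 CPM. This is a check of the sort and no result, and it places both plates sorted for GFP far above every VGAT plate.

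Of 14624 genes tested, 1306 were called (8.93%), 692 higher (4.73%) and 614 lower (4.2%) in VGAT+Pitx3 cells, with a median log2 fold change over all genes of 0.00. The plates of the populations did not overlap for 2110 of the tested genes (14.4%), and a gene named below as not overlapping is to be read beside that share. The same tool called 625 genes without the E16 VGAT+Pitx3 plate and 866 without the P0 one. A set of 29 gene classes with 1045 genes in the table, of which 852 were tested, was then read class by class. Among the tested class members 242 were called (28.4%), 120 higher and 122 lower. These classes were picked for neurons of this kind with results of these data known, so that their excess over 8.93% is a description and not a test. Dopamine handling and the transcription factor classes had their calls mainly in one direction, receptor, channel, guidance and synapse classes mostly in both, and oxidative phosphorylation and ribosomal protein genes had none.

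**Figure D1:**
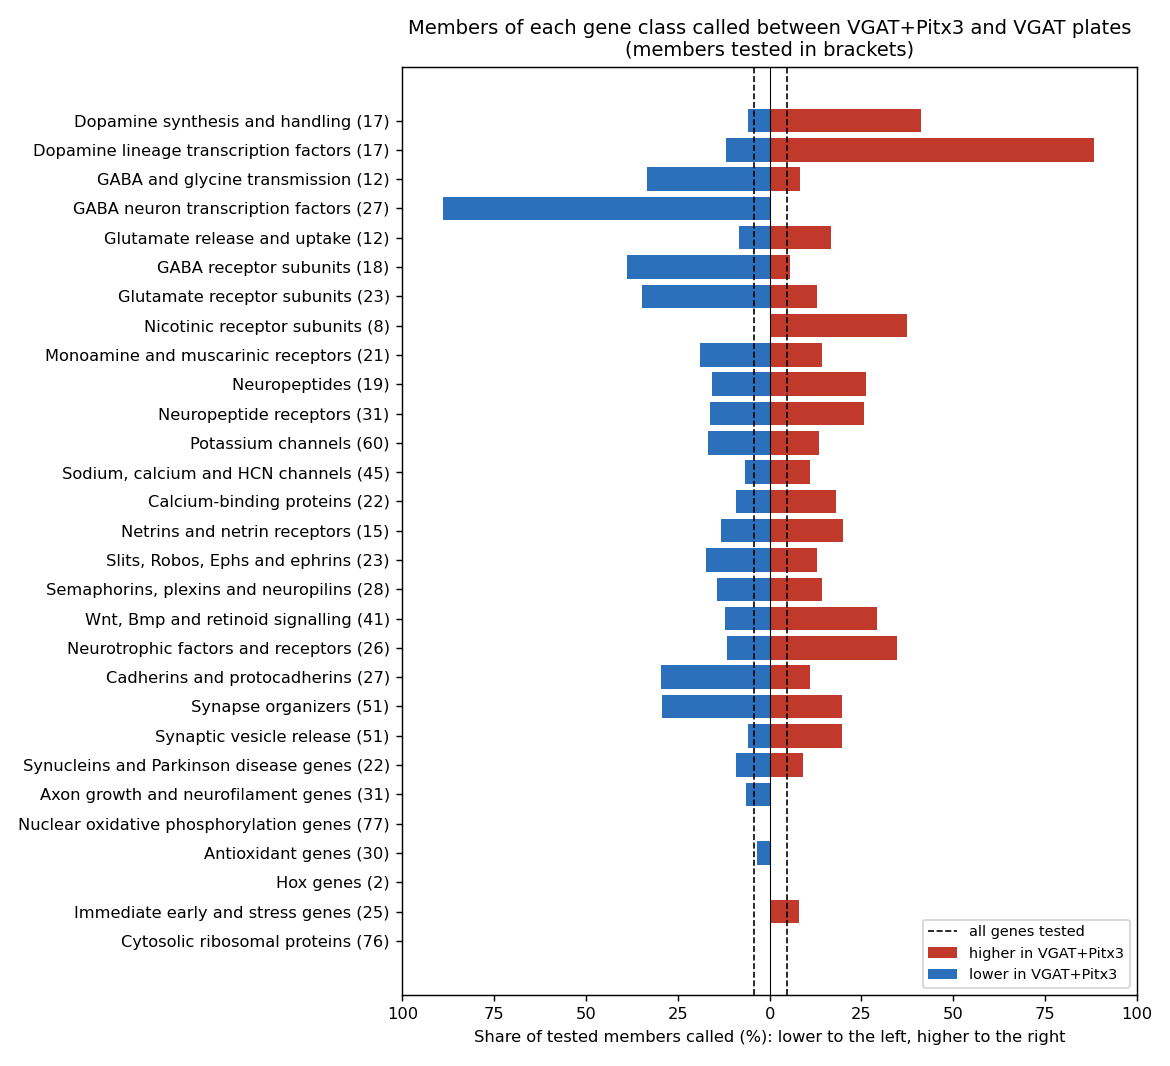
Share of the tested members of each gene class called higher (to the right) or lower (to the left) in VGAT+Pitx3 plates, in percent, with the number of members tested in brackets and the shares over all 14624 genes as dashed lines (4.73% and 4.2%). Dopamine lineage factors stand out on the right, GABA neuron factors on the left, and nuclear oxidative phosphorylation and cytosolic ribosomal protein genes have no bar.

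Genes of dopamine synthesis and handling were the first class. Here 7 of the 17 members tested were called higher and 1 lower, and 9 did not pass; the same 7 genes were called when either VGAT+Pitx3 plate was left out. Th (chromosome 7, from 142892752 to 142931128 on the minus strand), tyrosine hydroxylase, was at 565 and 474 CPM against 0.19, 2.22 and 6.16 CPM (log2 fold change 7.78 ± 0.38, adjusted p = 3.91e-09). Ddc, the decarboxylase that makes dopamine, was at 834 and 478 CPM against 15, 28.1 and 45.4 CPM (log2 fold change 4.52 ± 0.20, adjusted p = 1.77e-09). Neither gene overlapped between populations. The VGAT plates had low levels of Ddc, while Th was below what a plate resolves on some of them (0.19 CPM on VGAT E16 replicate 3). Slc18a2, the vesicular monoamine transporter, was at 229.7 and 299 CPM against 0.673, 2.85 and 5.8 CPM (log2 fold change 6.22 ± 0.24, adjusted p = 3.82e-10). Slc6a3 (chromosome 13, from 73536747 to 73578672 on the plus strand), the dopamine transporter of the membrane, was at 705 and 636 CPM against 0, 0.951 and 3.36 CPM (log2 fold change 9.13 ± 0.27, adjusted p = 3.33e-11). Aldh1a1, an aldehyde dehydrogenase of a subset of dopamine neurons, was at 2189.6 and 1738 CPM against 0.246, 0.761 and 2.22 CPM (log2 fold change 11.01 ± 0.21, adjusted p = 2.69e-13). Every VGAT plate was under 3 CPM for it. Gch1, which makes the cofactor of tyrosine hydroxylase, and Slc10a4, a vesicle protein of monoamine neurons, rose too (log2 fold changes 4.45 and 4.67). The breakdown enzymes Maoa and Maob and the cofactor enzymes Pts, Spr, Qdpr and Pcbd1 did not pass. Gchfr, the feedback regulator of Gch1, was at 0 and 0.449 CPM against 0.673, 2.24 and 6.11 CPM (log2 fold change -4.16 ± 1.14, adjusted p = 0.0331). This call rests on few counts and was lost (adjusted p 0.321 without the E16 VGAT+Pitx3 plate and 0.0648 without VGAT P0 replicate 3 and 0.109 without the P0 VGAT+Pitx3 plate).

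The starts of the genes that moved together are shown because the factors of this lineage act on such regions. Windows (250 bases before the annotated start to 50 after it; RefSeq, GRCm38.p6, 5′ to 3′ in the direction of the gene) were searched on both strands for AAAGGTCA, the element bound by Nr4a2 and its relatives. The 7 higher genes of the class all had a window, and 1 of them, Ddc, had a match (14.3%), against 460 of 27025 genes (1.70%). TAATCC, an element of the bicoid class to which Pitx3 and Otx2 belong, was searched in the same way and occurred in 0 of the 7, against 2199 of 27025 genes (8.14%). Ddc has 2 annotated starts, and the window of the start with the match is shown. Capitals mark this match, which lies on the reverse strand and begins 73 bases before that start. In the other windows the letters do not occur, which says nothing about the factor.
Th (GRCm38.p6, chr7:142899946-142900245, minus strand): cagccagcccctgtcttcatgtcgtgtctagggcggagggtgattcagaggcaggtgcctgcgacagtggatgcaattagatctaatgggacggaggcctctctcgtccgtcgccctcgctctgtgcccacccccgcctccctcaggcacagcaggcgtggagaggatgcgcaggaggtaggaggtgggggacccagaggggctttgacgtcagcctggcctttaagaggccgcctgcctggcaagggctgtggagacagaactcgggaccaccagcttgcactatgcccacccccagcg
Slc6a3 (GRCm38.p6, chr13:73536497-73536796, plus strand): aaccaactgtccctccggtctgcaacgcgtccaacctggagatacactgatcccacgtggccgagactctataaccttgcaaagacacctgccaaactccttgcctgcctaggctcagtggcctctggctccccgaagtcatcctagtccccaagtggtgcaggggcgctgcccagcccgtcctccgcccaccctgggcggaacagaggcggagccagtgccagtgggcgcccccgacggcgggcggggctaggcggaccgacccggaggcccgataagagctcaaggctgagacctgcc
Slc18a2 (GRCm38.p6, chr19:59260628-59260927, plus strand): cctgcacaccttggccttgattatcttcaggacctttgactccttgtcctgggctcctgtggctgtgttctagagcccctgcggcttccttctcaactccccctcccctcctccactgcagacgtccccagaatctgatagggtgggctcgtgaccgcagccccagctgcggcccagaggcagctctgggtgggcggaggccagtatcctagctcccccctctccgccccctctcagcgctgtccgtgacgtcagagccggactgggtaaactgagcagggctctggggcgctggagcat
Ddc (GRCm38.p6, chr11:11898095-11898394, minus strand): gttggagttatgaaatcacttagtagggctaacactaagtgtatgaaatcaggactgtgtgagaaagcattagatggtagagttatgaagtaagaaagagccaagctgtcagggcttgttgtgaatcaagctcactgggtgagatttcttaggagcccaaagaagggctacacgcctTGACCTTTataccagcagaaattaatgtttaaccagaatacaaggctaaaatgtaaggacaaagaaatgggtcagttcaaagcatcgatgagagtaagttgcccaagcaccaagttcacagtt

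All 17 tested transcription factors of the dopamine lineage passed the test, 15 higher, among them Pitx3 as the gene of the gate, and 2 lower; 16 of these calls were kept without the E16 and 15 without the P0 VGAT+Pitx3 plate. Lmx1a and Lmx1b, LIM homeodomain factors that act early in this lineage, were at 297 and 189.7 CPM against 0, 0.561 and 3.89 CPM (log2 fold change 7.75 ± 0.35, adjusted p = 1.82e-09) and 402 and 350.3 CPM against 0, 0.748 and 7.22 CPM (log2 fold change 7.71 ± 0.40, adjusted p = 6.54e-09). Nr4a2 (Nurr1), needed for the expression of the dopamine genes, was at 787 and 519 CPM against 28, 50 and 88.4 CPM (log2 fold change 3.65 ± 0.26, adjusted p = 2.57e-07). En1 and Foxa2, factors of midbrain and floor plate identity, were at 611 and 501 CPM against 27.8, 56.7 and 75.7 CPM (log2 fold change 3.35 ± 0.22, adjusted p = 1.26e-07) and 133 and 113 CPM against 21.5, 31.1 and 71.6 CPM (log2 fold change 1.84 ± 0.26, adjusted p = 1.84e-04). For these 3 genes all VGAT plates had clear levels, between 21.5 and 88.4 CPM, and none reached a VGAT+Pitx3 plate. Further members were called higher, with Ebf1, Ebf2 and Ebf3 at log2 fold changes of 0.80, 4.83 and 3.79 and Pbx3 at 1.79. The plates did not overlap for 16 of the 17 members, with Ebf1 as the exception, and its call was lost (adjusted p 0.373 without the P0 VGAT+Pitx3 plate). Otx2, a homeodomain factor of the midbrain that marks a part of the ventral tegmental area, went the other way, at 28.5 and 18.4 CPM against 64.4, 102 and 116 CPM (log2 fold change -2.01 ± 0.19, adjusted p = 4.13e-06). Its opposite-strand neighbour Otx2os1 overlaps it and had 155 and 3994 counts (VGAT+Pitx3 and VGAT plates, in this order here and below) against 167 and 2649 of Otx2, and since strand is not stated for the counting the reads cannot be told apart. Satb1, a chromatin protein, was at 71.9 and 31.8 CPM against 74.8, 111 and 191 CPM (log2 fold change -1.12 ± 0.22, adjusted p = 0.00376). This call was lost (0.085 without the P0 VGAT+Pitx3 plate).

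**Figure D2:**
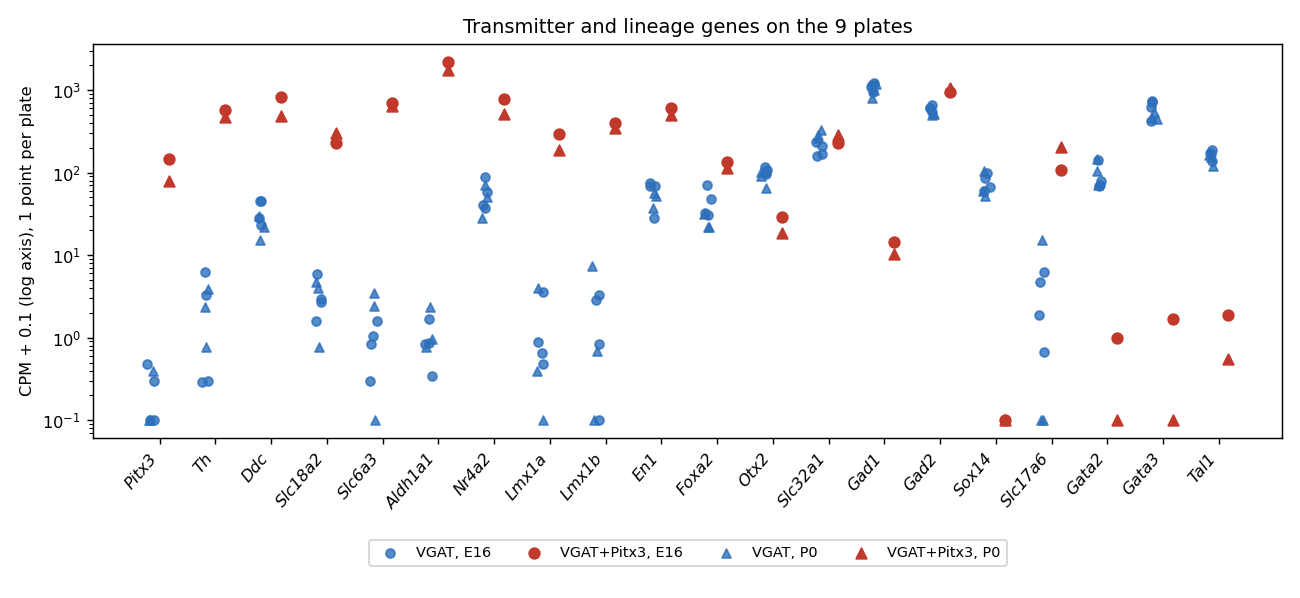
Levels of 20 transmitter and lineage genes on each plate (CPM + 0.1 on a log axis; circles E16, triangles P0; blue VGAT, red VGAT+Pitx3). Pitx3 to Foxa2 lie higher on both VGAT+Pitx3 plates, Otx2, Gad1, Sox14, Gata2, Gata3 and Tal1 lie lower, and Slc32a1 overlaps (158 to 325 CPM on VGAT plates, 225 and 285 CPM on VGAT+Pitx3 plates).

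The genes of GABA and glycine transmission did not move as a block. Of the 12 members tested 1 was called higher, 4 lower and 7 did not pass (of these 5 calls 3 were kept without the E16 and 4 without the P0 VGAT+Pitx3 plate). Slc32a1, the gene behind the tdTomato label, was at 225 and 285 CPM against 158, 232 and 325 CPM (log2 fold change 0.10 ± 0.15, adjusted p = 0.822), so its VGAT+Pitx3 plates lay inside the range of the VGAT plates. Gad2 (chromosome 2, from 22622205 to 22693874 on the plus strand) was at 936 and 1045 CPM against 493, 545 and 650.0 CPM (log2 fold change 0.83 ± 0.12, adjusted p = 2.69e-04), higher on both plates than on any VGAT plate. Gad1 (chromosome 2, from 70553072 to 70602014 on the plus strand) was at 14.5 and 10.3 CPM against 796, 1101 and 1209.8 CPM (log2 fold change -6.37 ± 0.25, adjusted p = 3.88e-10), lower than on every VGAT plate. The glutamate decarboxylases therefore differed in opposite directions, while the vesicular transporter showed no called difference. Abat, which breaks GABA down, was called lower (-1.01) with overlapping plates and lost its call (0.194 without the E16 VGAT+Pitx3 plate). Slc6a5, the glycine transporter of glycine neurons, was at 0.226 and 0 CPM against 0.397, 8.75 and 16.9 CPM (log2 fold change -5.42 ± 1.39, adjusted p = 0.0234). The call was lost without either VGAT+Pitx3 plate (0.192 without the E16 VGAT+Pitx3 plate and 0.193 without the P0 VGAT+Pitx3 plate). The chloride transporters Slc12a2 and Slc12a5 did not pass.

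To see how these genes fell on single cells, each cell was thinned to 4000 counts, and a gene was taken as found in a cell by 1 remaining count or more. This kept 299 and 249 cells of the VGAT+Pitx3 plates and 1408 cells of the VGAT plates. Thinned VGAT+Pitx3 cells had Th in 48.8% of cells at E16 (95% interval 43 to 54.6%) and 50.6% at P0 (44.2 to 57%), against 0, 0.515 and 1.32% on the VGAT plates (lowest, median and highest; exact Clopper-Pearson intervals, counting error only). Slc6a3 was found in 48.5% of cells at E16 (95% interval 42.7 to 54.3%) and 44.6% at P0 (38.3 to 51%), against 0, 0 and 2.33%. VGAT cells had Th in 8 of 1408, and shares up to that of the highest VGAT plate are read as background. Before thinning the median cell had 14562 and 7977 counts on the VGAT+Pitx3 plates and 7587 to 34751 on the VGAT plates. Slc32a1 was found in 49.8% of cells at E16 (95% interval 44 to 55.6%) and 51% at P0 (44.6 to 57.4%), against 42.7, 53 and 67.5%, and its shares overlapped. Gad2 was found in 62.5% of cells at E16 (95% interval 56.8 to 68%) and 67.9% at P0 (61.7 to 73.6%), against 74.4, 82.9 and 84.9%. This share goes against the summed level of Gad2, which was higher, and no order is read from it. Gad1 was found in 2.01% of cells at E16 (95% interval 0.74 to 4.32%) and 1.2% at P0 (0.249 to 3.48%), against 87.1, 95.3 and 97.8%, and its P0 share in VGAT+Pitx3 cells was below the highest share of Th on a VGAT plate. At least 1 of Slc32a1, Gad1 and Gad2 was found in 73.9% of cells at E16 (95% interval 68.5 to 78.8%) and 72.7% at P0 (66.7 to 78.1%), against 97.7, 99.3 and 100%. Among cells with Th, 52.1% at E16 and 53.2% at P0 had at least 1 of the 3. These shares depend on depth: without thinning Th was found in 66.8% and 61.6% of VGAT+Pitx3 cells, at least 1 of the 3 GABA genes in 86.2% and 83.0%, and among cells with Th in 79.8% and 74.3%, so a cell without a count may still express the gene.

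**Figure D3:**
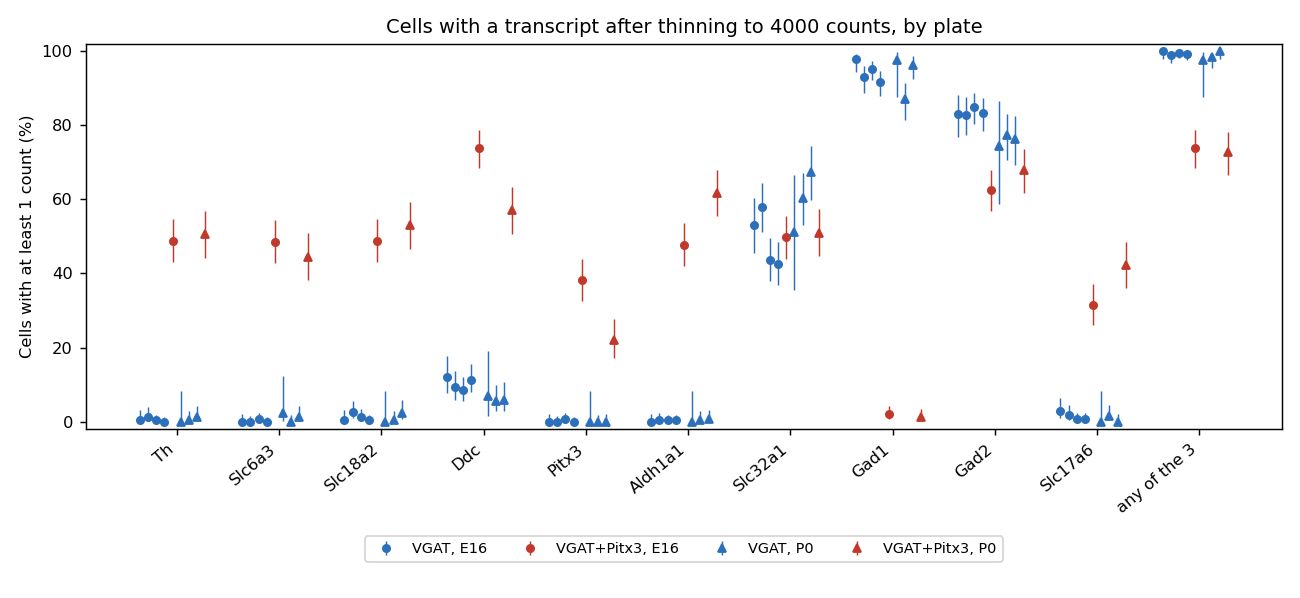
Share of cells with at least 1 count of each gene after thinning to 4000 counts, 1 point per plate with its 95% exact interval (circles E16, triangles P0; blue VGAT, red VGAT+Pitx3); the last position is any of Slc32a1, Gad1 and Gad2. Th, Slc6a3, Slc18a2 and Aldh1a1 lie between 44.6% and 61.8% on the red plates and under 3% on the blue ones, Gad1 shows the reverse, and Slc32a1 overlaps.

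Transcription factors of GABA neurons were the class with the most lower calls. Of the 27 tested, 24 were called lower and 0 higher, and Pax2 and Tal2 were among those that did not pass. Of these calls 12 were kept without the E16 VGAT+Pitx3 plate and 19 without the P0 one. The class median was -5.88, or -5.06 with the 6 members at 0 counts on both VGAT+Pitx3 plates set at their bound, beside 0.00 for all genes. Gata3 was at 1.58 and 0 CPM against 423, 540.5 and 730.2 CPM (log2 fold change -9.08 ± 0.43, adjusted p = 2.83e-09). Gata2 was at 0.905 and 0 CPM against 69.2, 78.9 and 148 CPM (log2 fold change -7.26 ± 0.64, adjusted p = 2.31e-06). Tal1, the partner of the GATA factors in this lineage, was at 1.81 and 0.449 CPM against 119.7, 163 and 185 CPM (log2 fold change -6.87 ± 0.31, adjusted p = 2.18e-09). Over both VGAT+Pitx3 plates Gata3 had 7 counts, Gata2 4 and Tal1 9, while no VGAT plate was below 69.2 CPM for any of them. Sox14, a target and marker of this lineage, had 0 counts on both VGAT+Pitx3 plates and 51.7, 66.0 and 105 CPM on the VGAT plates, at least 166-fold lower with 3 counts over the 2 plates as the limit. Dlx1, of the forebrain GABA program, also had 0 counts there and 2.63, 25.7 and 137 CPM on the VGAT plates, at least 101-fold lower over pooled plates. Its highest level was on VGAT E16 replicate 2, without which the limit is at least 50.5-fold, and its call was lost (0.419 without the E16 VGAT+Pitx3 plate). Dlx1as, on the opposite strand, had 2 and 226 counts against 0 and 1214, so its reads cannot be told apart. Among the others were Six3 (-7.0), Pax5 (-4.43, lost at 0.379 without the E16 VGAT+Pitx3 plate), Tcf7l2 (-5.68), Nkx2-2 (-5.04) and Lhx1 (-5.68), and Otp and Pax7 were called with overlapping plates and lost their calls (Otp 0.155 without the E16 VGAT+Pitx3 plate and 0.163 without the P0 VGAT+Pitx3 plate, Pax7 0.186 without the E16 VGAT+Pitx3 plate and 0.177 without the P0 VGAT+Pitx3 plate).

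A GATA element, AGATAA, was searched on both strands of the same windows, since it is the site of the GATA factors that fell. Of the 24 lower genes 18 had a window and 3 of these had a match (16.7%: Isl1, Tal1 and Tcf7l2), against 3432 of 27025 genes (12.7%); of the 7 higher dopamine handling genes Aldh1a1 and Slc18a2 had one. Tal1 has 2 annotated starts, and the window of the start with a match is shown. The reverse-strand match is in capitals, 205 bases before that start.
Tal1 (GRCm38.p6, chr4:115056176-115056475, plus strand): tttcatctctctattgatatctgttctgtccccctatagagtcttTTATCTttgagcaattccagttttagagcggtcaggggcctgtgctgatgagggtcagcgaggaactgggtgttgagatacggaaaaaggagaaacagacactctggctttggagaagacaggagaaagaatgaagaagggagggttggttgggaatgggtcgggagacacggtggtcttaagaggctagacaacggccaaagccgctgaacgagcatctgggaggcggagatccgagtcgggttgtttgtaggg

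Glutamate release and uptake had 2 members higher, 1 lower and 9 not past the threshold among 12 tested. Slc17a6, the vesicular glutamate transporter VGLUT2, was at 106 and 206 CPM against 0, 1.78 and 15 CPM (log2 fold change 5.25 ± 0.52, adjusted p = 7.05e-06). After thinning it was found in 31.4% of cells at E16 (95% interval 26.2 to 37%) and 42.2% at P0 (36 to 48.6%), against 0, 0.683 and 2.73%. It was found together with Th in 8.36% and 15.7% of VGAT+Pitx3 cells and in 0 of 1408 VGAT cells. Among VGAT+Pitx3 cells with Th it was found in 17.1% at E16 and 31.0% at P0, less often than among all VGAT+Pitx3 cells. Slc1a2, a glutamate uptake transporter that astrocytes also express, was at 348 and 233 CPM against 77.4, 141 and 191 CPM (log2 fold change 1.12 ± 0.15, adjusted p = 1.08e-04). It is the 1 called gene of the glial list above that rose. Slc1a6 was at 11.3 and 12.6 CPM against 16.9, 31.1 and 44.7 CPM (log2 fold change -1.36 ± 0.31, adjusted p = 0.0118), lost as a call (0.0962 without the E16 VGAT+Pitx3 plate and 0.177 without the P0 VGAT+Pitx3 plate).

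GABA and glycine receptor subunits were lower more often than higher: 7 of 18 tested were called lower, 1 higher (4 and 0 without the E16 VGAT+Pitx3 plate), with a class median of -0.58. Gabra2, an alpha subunit, was at 51.1 and 59.2 CPM against 148, 169.5 and 208 CPM (log2 fold change -1.70 ± 0.17, adjusted p = 7.77e-06). Glra2, the glycine receptor subunit of immature neurons, was at 46.8 and 57.9 CPM against 128, 154 and 169.6 CPM (log2 fold change -1.53 ± 0.15, adjusted p = 8.19e-06). Neither overlapped. Gabrg1, Gabrb1, Gabra5 and Gabrg3 were lower at log2 fold changes between -1.13 and -0.69, of which Gabrb1 (adjusted p 0.242 without the E16 VGAT+Pitx3 plate), Gabra5 (0.137 without the P0 VGAT+Pitx3 plate) and Gabrg3 (0.147 without the E16 VGAT+Pitx3 plate) lost their calls. The subunit gene Gabrb2 and both GABA-B receptor genes did not pass. Gabrq, the theta subunit, was at 21.7 and 19.3 CPM against 5.16, 9.91 and 14.8 CPM (log2 fold change 1.03 ± 0.26, adjusted p = 0.0206) and Glra1 at 2.04 and 6.28 CPM against 7.39, 11.4 and 18.9 CPM (log2 fold change -1.71 ± 0.44, adjusted p = 0.0223). Both calls were lost, at 0.56 without the E16 VGAT+Pitx3 plate and 0.412 without the E16 VGAT+Pitx3 plate (adjusted p).

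Glutamate receptor subunits split, with 3 of 23 tested higher and 8 lower (of these 11 calls 7 were kept without the E16 and 10 without the P0 VGAT+Pitx3 plate). Gria3, an AMPA receptor subunit, was at 554 and 601 CPM against 146, 174 and 195 CPM (log2 fold change 1.75 ± 0.13, adjusted p = 2.96e-07). Grid1, a delta receptor that binds cerebellins, was at 429 and 367 CPM against 136, 166 and 225 CPM (log2 fold change 1.17 ± 0.13, adjusted p = 2.04e-05). Grik4, a kainate receptor subunit, was at 145 and 188 CPM against 66.3, 74 and 91.2 CPM (log2 fold change 1.10 ± 0.14, adjusted p = 9.07e-05). Both plates of VGAT+Pitx3 cells lay above all VGAT plates for these 3 genes. The metabotropic receptor gene Grm7 was the furthest in the other direction, at 32.6 and 70.4 CPM against 309, 364 and 506 CPM (log2 fold change -3.06 ± 0.30, adjusted p = 7.05e-06). Grm3 was at 53.6 and 44.9 CPM against 96.8, 117 and 163 CPM (log2 fold change -1.33 ± 0.19, adjusted p = 2.32e-04). Grik2 was at 294 and 396 CPM against 623, 812 and 1324 CPM (log2 fold change -1.29 ± 0.25, adjusted p = 0.00391), the last lost as a call (0.172 without the E16 VGAT+Pitx3 plate). No NMDA receptor gene (Grin1, Grin2a, Grin2b, Grin2d, Grin3a) passed.

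Nicotinic receptors had 3 of 8 tested members called, all higher, and the same 3 were called when either VGAT+Pitx3 plate was left out. Chrna6 and Chrnb3, subunits of the nicotinic receptor of dopamine neurons, were at 164 and 238 CPM against 0, 0.38 and 1.19 CPM (log2 fold change 8.47 ± 0.26, adjusted p = 4.53e-11) and 235 and 240.0 CPM against 0, 0.198 and 1.67 CPM (log2 fold change 9.60 ± 0.27, adjusted p = 2.37e-11). The VGAT levels of both were under 2 CPM on every plate, so the size of these fold changes is uncertain. Chrna4 was at 199 and 157 CPM against 70.8, 88.6 and 94.4 CPM (log2 fold change 1.06 ± 0.13, adjusted p = 6.64e-05), with all VGAT plates at clear levels; its call was lost with the P0 plates alone (adjusted p 0.0765). Chrna2, Chrna3, Chrna5, Chrna7 and Chrnb2 did not pass. Monoamine and muscarinic receptors had 3 of 21 higher and 4 lower (of these 7 calls 2 were kept without the E16 and 5 without the P0 VGAT+Pitx3 plate). Drd2, the dopamine autoreceptor, was at 49.3 and 37.7 CPM against 8.75, 10.6 and 12.8 CPM (log2 fold change 2.08 ± 0.17, adjusted p = 1.09e-06). Chrm5, the muscarinic receptor of dopamine neurons, was at 4.75 and 3.14 CPM against 0, 0 and 2.02 CPM (log2 fold change 3.87 ± 0.88, adjusted p = 0.0103), with few counts. It had too few to be tested without the E16 VGAT+Pitx3 plate, with the P0 plates alone or in thinned plates. In a fit with the replicate number as a block its call was lost (adjusted p 0.333). In the other direction Adra1a was at 2.94 and 13.9 CPM against 22.4, 28.6 and 35.7 CPM (log2 fold change -2.02 ± 0.37, adjusted p = 0.0021) and Htr1b at 5.43 and 7.18 CPM against 12.3, 14.2 and 20.4 CPM (log2 fold change -1.30 ± 0.23, adjusted p = 0.00159). The call of Adra1a was lost at 0.121 without the E16 VGAT+Pitx3 plate, and that of Htr1b with the P0 plates alone (0.187) and with plates thinned to the smallest sum (0.0547). Htr1b overlaps an opposite-strand gene with 19 and 144 counts against its own 40 and 384. Htr3a had 0 counts on both VGAT+Pitx3 plates and at most 7.88 CPM elsewhere, at least 10.4-fold lower over pooled plates, and was lost (0.256 without the E16 VGAT+Pitx3 plate and 0.1 without the P0 VGAT+Pitx3 plate), as was the higher call of Adra1b (0.285 without the E16 VGAT+Pitx3 plate and 0.119 without the P0 VGAT+Pitx3 plate).

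Neuropeptide genes were higher in 5 and lower in 3 of 19 tested (of these 8 calls 5 were kept without the E16 and 5 without the P0 VGAT+Pitx3 plate). Cck, cholecystokinin, was at 24 and 65.9 CPM against 0, 0.555 and 5.55 CPM (log2 fold change 4.82 ± 0.50, adjusted p = 1.22e-05). Grp, gastrin-releasing peptide, was at 10.6 and 35.9 CPM against 0.38, 0.935 and 6.67 CPM (log2 fold change 3.63 ± 0.44, adjusted p = 4.84e-05). Adcyap1, the precursor of PACAP, was at 15.4 and 29.6 CPM against 0, 1.31 and 2.97 CPM (log2 fold change 3.72 ± 0.42, adjusted p = 2.52e-05). All 3 were higher at P0 than at E16 among the VGAT+Pitx3 plates, with 1 plate a stage and no error. Calca was called higher as well (3.06) and lost its call (0.157 without the E16 VGAT+Pitx3 plate and 0.139 without the P0 VGAT+Pitx3 plate). Pnoc, prepronociceptin, was at 0.678 and 2.24 CPM against 111, 133 and 188 CPM (log2 fold change -6.79 ± 0.35, adjusted p = 6.35e-09), low on both VGAT+Pitx3 plates. Npy was at 0.452 and 0.897 CPM against 9.54, 57.8 and 150.2 CPM (log2 fold change -6.67 ± 1.54, adjusted p = 0.0118) and Penk at 26.7 and 24.7 CPM against 35.7, 68 and 153 CPM (log2 fold change -1.53 ± 0.42, adjusted p = 0.0324). Both calls were lost, Npy at 0.245 without the E16 VGAT+Pitx3 plate and 0.0815 without the P0 VGAT+Pitx3 plate and Penk at 0.0826 without the E16 VGAT+Pitx3 plate and 0.384 without the P0 VGAT+Pitx3 plate. Sst, Tac1, Nts, Gal and Pdyn did not pass.

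Their receptors had 8 of 31 higher and 5 lower (of these 13 calls 7 were kept without the E16 and 11 without the P0 VGAT+Pitx3 plate). Avpr1a, a vasopressin receptor, was at 28.9 and 25.1 CPM against 0.493, 1.67 and 2.43 CPM (log2 fold change 3.99 ± 0.31, adjusted p = 5.76e-07). Oprk1, the kappa opioid receptor, was at 42.1 and 26.9 CPM against 3.97, 5.0 and 9.05 CPM (log2 fold change 2.57 ± 0.27, adjusted p = 1.27e-05). Oprm1, the mu opioid receptor, was at 5.65 and 6.28 CPM against 12.8, 21.3 and 32.8 CPM (log2 fold change -1.91 ± 0.27, adjusted p = 1.96e-04). These opioid receptor genes thus went in opposite directions, and Oprd1, the delta receptor, did not pass. Hcrtr1 and Hcrtr2, the orexin receptors, split as well, with log2 fold changes of 1.20 (lost at 0.0834 without the P0 VGAT+Pitx3 plate) and -1.77. Ntsr1, the neurotensin receptor of dopamine neurons, rose (2.12), and Cnr1, the cannabinoid receptor, fell by 1.75 on the log2 scale. Npy1r was at 38 and 14.4 CPM against 1.9, 5.26 and 10.1 CPM (log2 fold change 2.47 ± 0.40, adjusted p = 7.43e-04), Sstr1 at 0.678 and 1.79 CPM against 5.55, 6.72 and 13.3 CPM (log2 fold change -2.96 ± 0.58, adjusted p = 0.00358), and the calls of Npy1r, Sstr1 and Hcrtr2 were lost, at 0.398 without the E16 VGAT+Pitx3 plate, 0.214 without the E16 VGAT+Pitx3 plate and 0.1 without the E16 VGAT+Pitx3 plate. The Avpr1a and Oprm1 loci overlap opposite-strand genes with enough counts (53 and 47 on the VGAT+Pitx3 plates) that their reads cannot be told apart.

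Potassium channels had 8 of 60 tested members higher and 10 lower (of these 18 calls 8 were kept without the E16 and 12 without the P0 VGAT+Pitx3 plate; 2 genes were lower in all without the E16 one). Kcnk9, the leak channel TASK3, was at 277 and 549.9 CPM against 25.5, 41.1 and 45.6 CPM (log2 fold change 3.41 ± 0.21, adjusted p = 5.93e-08). Kcnk13, another leak channel, was at 23.1 and 19.7 CPM against 0.739, 2.62 and 3.36 CPM (log2 fold change 3.26 ± 0.31, adjusted p = 5.42e-06). Both lay above every VGAT plate, and Kcnk3 (TASK1) went the other way (-0.93), a call that was lost (0.193 without the E16 VGAT+Pitx3 plate and 0.154 without the P0 VGAT+Pitx3 plate). Kcnj6, the GIRK2 channel of dopamine neurons, rose by a log2 fold change of 2.35, and its partner Kcnj3 (GIRK1) was called lower (-1.13) and lost its call (0.201 without the E16 VGAT+Pitx3 plate). Kcnd3 (Kv4.3) rose (1.54) and Kcnd2 fell (-0.78, lost at 0.442 without the E16 VGAT+Pitx3 plate), and Kcnn3 (SK3) rose (1.11). Kcnq5 was at 40.5 and 57.4 CPM against 101, 113 and 129 CPM (log2 fold change -1.28 ± 0.15, adjusted p = 3.72e-05), a difference that did not pass in spliced counts (adjusted p 0.126). Kcng3, Kcnh5 and Kcnj2, at log2 fold changes of 2.61, -1.88 and -2.04, were called on low counts and lost their calls; the adjusted p-values were 0.0633 without the E16 VGAT+Pitx3 plate and 0.0598 without the P0 VGAT+Pitx3 plate for Kcng3, 0.198 without the E16 VGAT+Pitx3 plate and 0.0616 without the P0 VGAT+Pitx3 plate for Kcnh5 and 0.0741 without VGAT E16 replicate 1 and 0.0735 without VGAT E16 replicate 2 and 0.158 without the E16 VGAT+Pitx3 plate and 0.0604 without VGAT P0 replicate 1 and 0.0528 without VGAT P0 replicate 2 and 0.36 without the P0 VGAT+Pitx3 plate for Kcnj2.

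Among sodium, calcium and HCN channels 5 of 45 were higher and 3 lower (of these 8 calls 5 were kept without the E16 and 6 without the P0 VGAT+Pitx3 plate). Cacna2d1 and Cacna2d3, auxiliary alpha2delta subunits of calcium channels, were at 154 and 218 CPM against 2.63, 15.7 and 34.4 CPM (log2 fold change 3.64 ± 0.50, adjusted p = 1.54e-04) and 1049 and 1109 CPM against 169, 269 and 377 CPM (log2 fold change 1.94 ± 0.21, adjusted p = 1.64e-05). Trpc6, a receptor-operated cation channel, was at 21.5 and 41.3 CPM against 2.22, 5.26 and 10.8 CPM (log2 fold change 2.31 ± 0.36, adjusted p = 4.79e-04). Its relative Trpc4 was at 16.7 and 14.8 CPM against 38.9, 48.8 and 71.7 CPM (log2 fold change -1.68 ± 0.21, adjusted p = 5.86e-05). Trpc6 overlaps an opposite-strand gene with 21 and 61 counts against its own 187 and 150. No gene of a pore-forming sodium or calcium channel subunit was called. Calcium-binding proteins had 4 of 22 higher and 2 lower. Necab1 was at 152 and 212 CPM against 20.7, 34.3 and 45.1 CPM (log2 fold change 2.51 ± 0.22, adjusted p = 2.25e-06), with an overlapping opposite-strand gene at 105 and 315 counts against 1146 and 888. The potassium channel partner Kcnip4 was at 1519 and 2459 CPM against 775, 885 and 1160.2 CPM (log2 fold change 1.10 ± 0.18, adjusted p = 8.33e-04) and Kcnip1 at 155 and 155 CPM against 284, 324 and 352 CPM (log2 fold change -1.03 ± 0.12, adjusted p = 3.59e-05), with opposite directions. Kcnip3 was called higher (0.75), lost at 0.283 without the E16 VGAT+Pitx3 plate, and Kcnip4 was lost at 0.0916 without the P0 VGAT+Pitx3 plate. Cabp1 was at 9.05 and 13.9 CPM against 26.9, 36.7 and 52.2 CPM (log2 fold change -1.81 ± 0.25, adjusted p = 1.89e-04), lost with the P0 plates alone (0.0706). Calb1, calbindin, a marker of a subset of dopamine neurons, was at 28.5 and 121 CPM against 4.56, 48.3 and 266 CPM (log2 fold change -0.25 ± 0.75, adjusted p = 0.925) and did not differ beyond the spread of the VGAT plates, which was wide.

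Netrins and their receptors guide migrating neurons and axons, and the study asked about netrin-1 in the migration of GABA neurons. Ntn1, the secreted guidance protein netrin-1, was at 368 and 440.0 CPM against 4.76, 11.4 and 29.4 CPM (log2 fold change 5.11 ± 0.33, adjusted p = 7.90e-08). Ntng1 (netrin-G1), a membrane-anchored relative, was at 937 and 899.7 CPM against 127, 164 and 199.7 CPM (log2 fold change 2.47 ± 0.14, adjusted p = 2.41e-08). Lrrc4c, the ligand of netrin-G1, was at 264 and 458 CPM against 771, 1064 and 1450.2 CPM (log2 fold change -1.52 ± 0.27, adjusted p = 0.00153). Ntn1 and Ntng1 lay above every VGAT plate and Lrrc4c below. Dcc, the main attractive receptor, was at 1711 and 1692 CPM against 1028, 1453 and 2186 CPM (log2 fold change 0.19 ± 0.20, adjusted p = 0.717). Dscam, another receptor, was at 554 and 748 CPM against 469, 553 and 699 CPM (log2 fold change 0.19 ± 0.17, adjusted p = 0.652). Both overlapped and neither passed, as did not Neo1, Unc5a, Unc5b and Unc5c. Unc5d, a repulsive receptor, was at 261 and 255 CPM against 426, 516 and 716 CPM (log2 fold change -1.04 ± 0.16, adjusted p = 3.63e-04), lost with the P0 plates alone (0.0754). In all 3 of 15 were higher and 2 lower (of these 5 calls 3 were kept without the E16 and 4 without the P0 VGAT+Pitx3 plate). Ntng2, at 4.07 and 8.52 CPM against 0, 0.38 and 1.11 CPM (log2 fold change 3.74 ± 0.69, adjusted p = 0.00218), and Lrrc4c lost their calls, at 0.0511 without the E16 VGAT+Pitx3 plate and 0.084 without the P0 VGAT+Pitx3 plate and 0.0701 without the E16 VGAT+Pitx3 plate.

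Slits, Robos, Ephs and ephrins had 3 of 23 higher and 4 lower. Epha6 and Epha5, Eph receptors, were at 1177 and 1418 CPM against 189.7, 268 and 390.0 CPM (log2 fold change 2.23 ± 0.18, adjusted p = 8.35e-07) and 969 and 1050.4 CPM against 328, 368 and 497 CPM (log2 fold change 1.41 ± 0.14, adjusted p = 8.85e-06). Slit2, a repulsive ligand, was at 277 and 344 CPM against 107, 133 and 146 CPM (log2 fold change 1.22 ± 0.12, adjusted p = 8.95e-06). None of these overlapped. Ephb1 was at 127 and 126 CPM against 331, 417 and 505 CPM (log2 fold change -1.71 ± 0.16, adjusted p = 4.72e-06). Efnb2, an ephrin ligand, was at 10.2 and 8.52 CPM against 18.4, 31.8 and 34.1 CPM (log2 fold change -1.66 ± 0.24, adjusted p = 2.40e-04), and both lay below all VGAT plates. The call of Efnb2 was lost with the P0 plates alone (0.0736). Epha8 was at 6.33 and 5.83 CPM against 10.1, 23.3 and 29.5 CPM (log2 fold change -1.91 ± 0.29, adjusted p = 4.66e-04), lost at 0.0687 without the E16 VGAT+Pitx3 plate, and the Robo genes tested did not pass. Semaphorins, plexins and neuropilins had 4 of 28 higher and 4 lower, and all 4 higher calls (Sema5b, Plxna4, Plxnc1 and Sema6d) were lost without the P0 VGAT+Pitx3 plate. Sema3c and Sema3e, secreted semaphorins, were at 3.17 and 2.24 CPM against 23.7, 49.4 and 68.6 CPM (log2 fold change -4.01 ± 0.42, adjusted p = 1.29e-05) and 3.84 and 2.24 CPM against 38.3, 48.2 and 56.9 CPM (log2 fold change -3.86 ± 0.25, adjusted p = 8.78e-08). Nrp1, a semaphorin receptor, was at 36 and 78 CPM against 163, 210.2 and 236 CPM (log2 fold change -1.89 ± 0.26, adjusted p = 1.45e-04). These 3 fell on both plates. The higher calls were small, with Sema5b at 51.6 and 50.7 CPM against 18.3, 25.5 and 35.7 CPM (log2 fold change 1.06 ± 0.18, adjusted p = 0.00122) and Plxna4 at 464 and 443 CPM against 197, 262 and 356 CPM (log2 fold change 0.78 ± 0.15, adjusted p = 0.00367), and both lost their calls, at 0.0598 without the P0 VGAT+Pitx3 plate and 0.13 without the P0 VGAT+Pitx3 plate. Sema5b overlaps an opposite-strand gene with 60 and 149 counts against 341 and 718.

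Wnt, Bmp and retinoid genes had 12 of 41 higher and 5 lower, and 8 of the 17 calls were kept without the E16 VGAT+Pitx3 plate. Wnt7b was at 194 and 174 CPM against 0, 0.493 and 4.44 CPM (log2 fold change 7.67 ± 0.37, adjusted p = 3.19e-09). Wnt5a, a non-canonical Wnt ligand of the dopamine lineage, was at 309 and 292 CPM against 5.89, 6.73 and 12.1 CPM (log2 fold change 5.28 ± 0.17, adjusted p = 4.91e-11). No VGAT plate exceeded 4.44 CPM for Wnt7b or 12.1 CPM for Wnt5a. Bmp7 was at 24.4 and 9.42 CPM against 0, 0 and 2.22 CPM (log2 fold change 5.43 ± 0.67, adjusted p = 5.67e-05). The call was lost at 0.149 without the E16 VGAT+Pitx3 plate, and Bmp6 rose too (2.74). The secreted antagonists Nog, Grem1 and Dkk3 rose with log2 fold changes of 2.11, 2.17 and 2.79. Fzd1, a Wnt receptor, was at 3.17 and 3.59 CPM against 27.8, 41 and 50 CPM (log2 fold change -3.59 ± 0.28, adjusted p = 6.63e-07). Sfrp1, a Wnt antagonist, was at 9.5 and 4.93 CPM against 21.3, 37.5 and 56.7 CPM (log2 fold change -2.31 ± 0.34, adjusted p = 3.19e-04). Rarb, a retinoic acid receptor, was at 4.07 and 3.14 CPM against 13.3, 23.4 and 55.2 CPM (log2 fold change -2.86 ± 0.54, adjusted p = 0.00279), lost at 0.0799 without the E16 VGAT+Pitx3 plate. It overlaps Top2b on the opposite strand, which had 2797 and 11670 counts against 25 and 694, so its reads cannot be told apart.

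Neurotrophic factors and receptors had 9 of 26 higher and 3 lower (of these 12 calls 8 were kept without the E16 and 10 without the P0 VGAT+Pitx3 plate). Ret, the GDNF receptor kinase, was at 235 and 361 CPM against 11.3, 16.8 and 26.9 CPM (log2 fold change 3.93 ± 0.16, adjusted p = 8.11e-10), and its co-receptor Gfra1 was called higher (1.41, lost at 0.0889 without the E16 VGAT+Pitx3 plate and 0.21 without the P0 VGAT+Pitx3 plate) while Gfra2, the co-receptor for neurturin, was at 20.1 and 32.3 CPM against 37.4, 59.2 and 83.2 CPM (log2 fold change -1.23 ± 0.21, adjusted p = 0.00147). Nrtn, neurturin itself, was at 0.452 and 0 CPM against 6.05, 6.74 and 10.5 CPM (log2 fold change -4.50 ± 0.60, adjusted p = 1.23e-04). Nrtn lay below every VGAT plate, and Gfra2 lost its call (0.0667 without the E16 VGAT+Pitx3 plate). Ntf3, neurotrophin-3, was at 40.3 and 55.6 CPM against 0, 0.493 and 2.69 CPM (log2 fold change 5.84 ± 0.37, adjusted p = 7.08e-08), and its receptor Ntrk3 at 112 and 131 CPM against 266, 308 and 442 CPM (log2 fold change -1.41 ± 0.18, adjusted p = 1.01e-04). Met, the receptor of hepatocyte growth factor, was at 58.6 and 85.2 CPM against 1.67, 3.8 and 8.62 CPM (log2 fold change 4.08 ± 0.31, adjusted p = 4.54e-07). Bdnf (3.18), Erbb4 (3.25) and Fgf20 (3.23, plates overlapping, lost at 0.787 without the E16 VGAT+Pitx3 plate) were called higher as well, and Ntrk2, Ngfr and Egfr did not pass.

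**Figure D4:**
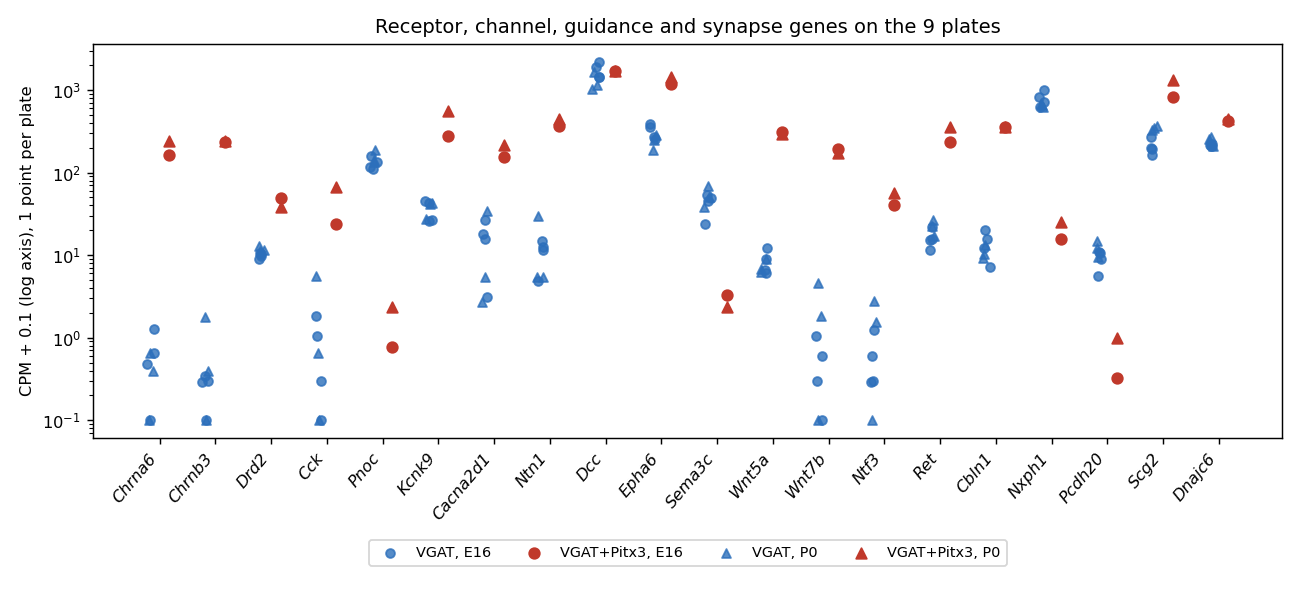
Levels of 20 receptor, channel, guidance, trophic and synapse genes on each plate (CPM + 0.1 on a log axis; circles E16, triangles P0; blue VGAT, red VGAT+Pitx3). Chrna6, Chrnb3, Wnt7b and Ntf3 are near the floor on VGAT plates, Pnoc, Sema3c, Nxph1 and Pcdh20 lie lower on VGAT+Pitx3 plates, and Dcc overlaps.

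Cadherins and protocadherins had 3 of 27 higher and 8 lower. Pcdh20 was at 0.226 and 0.897 CPM against 5.42, 10.5 and 14.8 CPM (log2 fold change -4.35 ± 0.55, adjusted p = 7.87e-05) and Cdh23 at 2.49 and 1.35 CPM against 14, 31.7 and 53.8 CPM (log2 fold change -3.92 ± 0.54, adjusted p = 1.74e-04). Pcdh11x was at 49.5 and 76.2 CPM against 205, 294 and 538 CPM (log2 fold change -2.44 ± 0.44, adjusted p = 0.00173), lost at 0.0944 without the E16 VGAT+Pitx3 plate. In the other direction Cdh11 was at 331 and 309 CPM against 117, 155 and 205 CPM (log2 fold change 1.08 ± 0.15, adjusted p = 1.87e-04) and Pcdh10 at 744 and 739 CPM against 289.9, 357 and 514 CPM (log2 fold change 1.00 ± 0.17, adjusted p = 0.001). These changes were smaller than those of Pcdh20 and Cdh23. Cdh4 was called higher (1.05) and lost its call (0.252 without the P0 VGAT+Pitx3 plate). Synapse organizers had 10 of 51 higher and 15 lower (49.0% called; of these 25 calls 13 were kept without the E16 and 21 without the P0 VGAT+Pitx3 plate). Cbln1, a secreted cerebellin that bridges neurexins and delta receptors, was at 359.5 and 355 CPM against 7.14, 12.2 and 20 CPM (log2 fold change 4.86 ± 0.21, adjusted p = 1.11e-09). Nxph1, a neurexin ligand, was at 15.4 and 25.1 CPM against 622, 671 and 989 CPM (log2 fold change -5.21 ± 0.28, adjusted p = 9.58e-09). Tenm1, a teneurin, was at 982 and 1485 CPM against 306, 418 and 599 CPM (log2 fold change 1.51 ± 0.20, adjusted p = 1.04e-04), while Tenm2, Tenm3 and Tenm4 were called lower (-0.72, -1.16 and -1.17) and lost their calls (Tenm2 0.248 without the E16 VGAT+Pitx3 plate, Tenm3 0.206 without the E16 VGAT+Pitx3 plate and 0.0656 without the P0 VGAT+Pitx3 plate, Tenm4 0.165 without the E16 VGAT+Pitx3 plate). Cntnap5a, a contactin-associated protein, was at 94.7 and 105 CPM against 291, 356 and 419 CPM (log2 fold change -1.79 ± 0.16, adjusted p = 2.05e-06). Il1rapl2 rose, at 259 and 374 CPM against 35.6, 81.7 and 105 CPM (log2 fold change 2.01 ± 0.25, adjusted p = 6.70e-05), and Il1rapl1 was called lower (-0.79, lost at 0.0521 without VGAT P0 replicate 1 and 0.459 without the E16 VGAT+Pitx3 plate). Lrrtm1, at 9.05 and 13.5 CPM against 46, 63.4 and 83.9 CPM (log2 fold change -2.55 ± 0.20, adjusted p = 6.63e-07), overlaps Ctnna2 on the opposite strand, which had 10094 and 48975 counts against 70 and 1589, so that its reads cannot be told apart.

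Genes of vesicle release had 10 of 51 higher and 3 lower (of these 13 calls 9 were kept without the E16 and 8 without the P0 VGAT+Pitx3 plate). Cadps2, a priming factor of dense-core vesicles, was at 268 and 273 CPM against 33, 65.3 and 92.6 CPM (log2 fold change 2.06 ± 0.24, adjusted p = 3.59e-05). Scg2, a secretogranin of dense-core vesicles, was at 817 and 1329.8 CPM against 164, 267 and 365 CPM (log2 fold change 1.97 ± 0.14, adjusted p = 2.57e-07). Pcsk2, a peptide-processing protease, was at 310.0 and 463 CPM against 75.4, 92 and 132 CPM (log2 fold change 1.91 ± 0.12, adjusted p = 4.43e-08). These 3 genes of the peptide route were higher on both plates. Syt11, a synaptotagmin, was called higher too and lost its call without VGAT E16 replicate 1 (log2 fold change 0.50, adjusted p 0.0517). Without the E16 and without the P0 VGAT+Pitx3 plate its log2 fold change was 0.60 and 0.40. The synaptotagmins Syt4, Syt7, Syt10, Syt13 and Syt17 were called higher, between 0.65 and 1.79, of which Syt4 (0.598 without the P0 VGAT+Pitx3 plate), Syt10 (0.159 without the E16 VGAT+Pitx3 plate and 0.138 without the P0 VGAT+Pitx3 plate) and Syt13 (0.285 without the E16 VGAT+Pitx3 plate) lost their calls, and Syt9 was at 17.6 and 15.7 CPM against 38.3, 41.3 and 49.4 CPM (log2 fold change -1.34 ± 0.16, adjusted p = 4.11e-05). Rab3b, a vesicle GTPase, was called lower (-0.62) and lost its call (0.233 without the P0 VGAT+Pitx3 plate). Syn2, a synapsin, was at 81.6 and 147 CPM against 182, 219 and 271 CPM (log2 fold change -1.03 ± 0.16, adjusted p = 6.50e-04) (lost at 0.0601 without the E16 VGAT+Pitx3 plate).

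Synucleins and Parkinson disease genes had 2 of 22 higher and 2 lower (18.2% called; of these 4 calls 2 were kept without the E16 and 4 without the P0 VGAT+Pitx3 plate). Dnajc6, auxilin, was at 415 and 446 CPM against 208, 215 and 268 CPM (log2 fold change 0.91 ± 0.11, adjusted p = 6.19e-05), above all VGAT plates. Sncb (-0.73, plates overlapping) and Vps13c (-0.64) were called lower and lost their calls, Sncb at 0.218 without the E16 VGAT+Pitx3 plate and Vps13c at 0.425 without the E16 VGAT+Pitx3 plate. The genes Lrrk2, Pink1, Park2, Park7, Vps35 and Uchl1 did not pass.

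The shares called in the remaining classes were below the 8.93% over all genes. Of 77 nuclear oxidative phosphorylation genes edgeR called 0, as did DESeq2, with 4 at an unadjusted p under 0.05, all lower. Their median was -0.15, and 64 of the 77 were below 0 (quartiles -0.23 and -0.09). Of 76 cytosolic ribosomal protein genes both tools called 0, with 3 at an unadjusted p under 0.05, the median was -0.11 and 58 were below 0 (quartiles -0.26 and -0.01). Both medians were below 0 in each of 25 other settings, while with a replicate block 45 of 77 and 52 of 76 genes were. Antioxidant genes had 1 of 30 called, Cat (catalase), at 10.9 and 21.1 CPM against 22.4, 25.1 and 30.6 CPM (log2 fold change -0.81 ± 0.22, adjusted p = 0.0294), lost at 0.59 without the E16 VGAT+Pitx3 plate. Axon growth and neurofilament genes had 2 of 31 called (6.45%), both lower, Nefl (-0.62) and Sox11 (-0.61), and neither was called when either VGAT+Pitx3 plate was left out (Nefl 0.0552 without VGAT E16 replicate 1 and 0.0565 without VGAT E16 replicate 3 and 0.407 without the E16 VGAT+Pitx3 plate and 0.0745 without VGAT P0 replicate 3 and 0.102 without the P0 VGAT+Pitx3 plate; Sox11 0.051 without VGAT E16 replicate 1 and 0.0619 without VGAT P0 replicate 1 and 0.0519 without VGAT P0 replicate 3 and 0.276 without the E16 VGAT+Pitx3 plate and 0.154 without the P0 VGAT+Pitx3 plate). Immediate early and stress genes had 2 of 25 called (8.0%), Btg2, at 10.6 and 14.8 CPM against 1.71, 2.22 and 10.0 CPM (log2 fold change 1.99 ± 0.43, adjusted p = 0.007), and Jun (1.26, plates overlapping), both lost (Btg2 0.27 without the E16 VGAT+Pitx3 plate; Jun 0.367 without the E16 VGAT+Pitx3 plate). Fos, Fosb, Egr1, Arc and Npas4 did not pass. Of 28 Hox genes, which mark the hindbrain, 2 had enough counts to be tested. The summed class was at 1.58 and 0.897 CPM against 0.595, 4.71 and 68.5 CPM. edgeR called 0 of the 2, both had an unadjusted p under 0.05 and DESeq2 called both lower. Without a filter on low counts edgeR called 5 Hox genes lower, and 1 without VGAT E16 replicate 4.

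**Figure D5:**
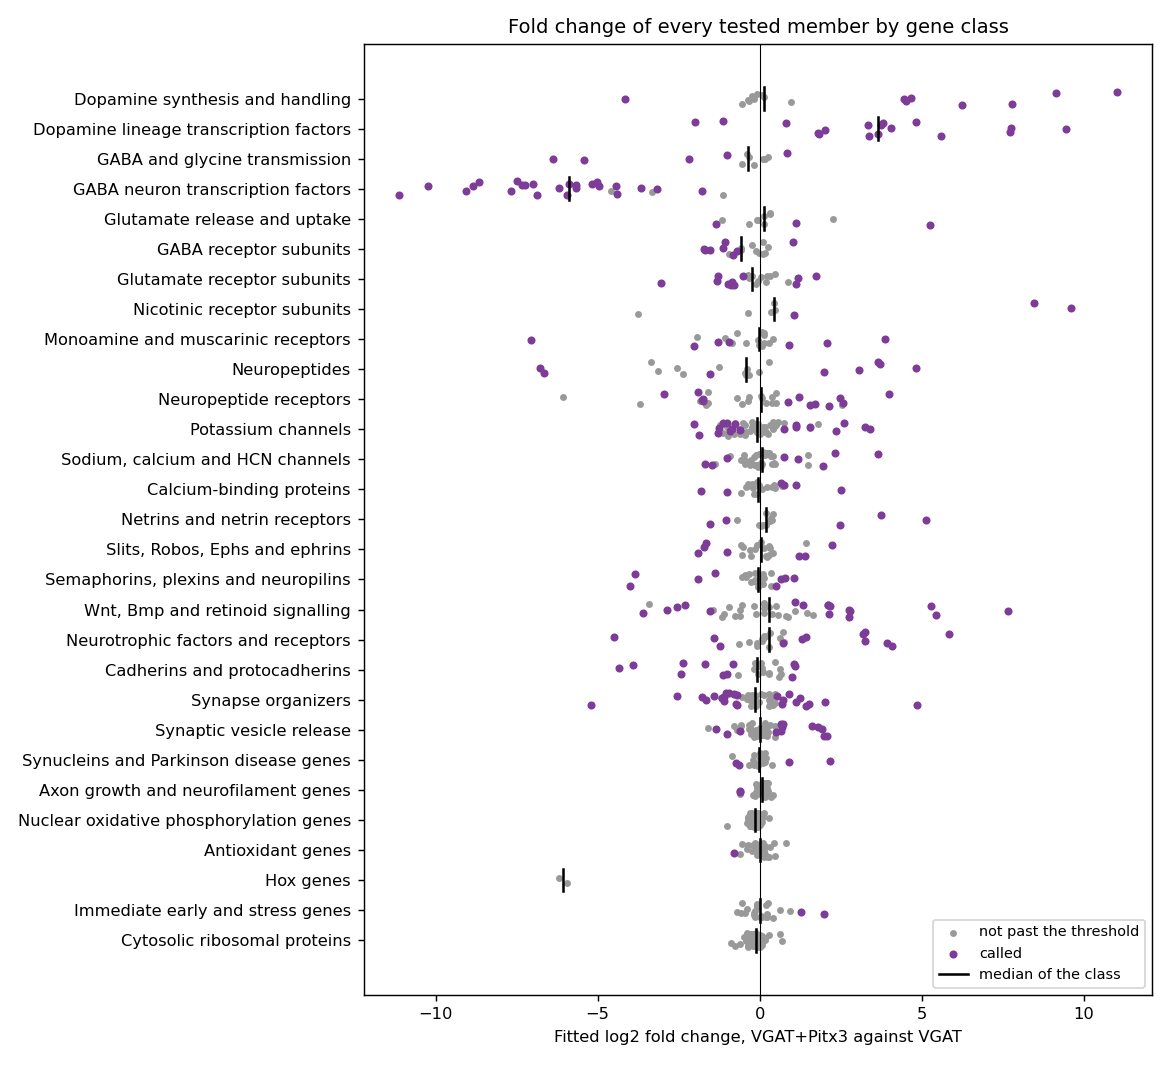
Fitted log2 fold change of VGAT+Pitx3 against VGAT plates for every tested member of each class (grey, not past the threshold; purple, called; black bar, median of the class). Antioxidant and axon growth genes cluster around 0 and most oxidative phosphorylation (64 of 77) and ribosomal protein genes (58 of 76) lie slightly below it, while the members of the receptor, channel and synapse classes spread to both sides of 0, with medians from -0.58 (GABA and glycine receptor subunits) to 0.45 (nicotinic receptor subunits).

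Of the called genes 1064 belong to no class. Itga11, an integrin subunit and by the naming rule the gene with the largest rise, was at 14.7 and 25.6 CPM against 0, 0.198 and 0.673 CPM (log2 fold change 6.29 ± 0.44, adjusted p = 1.97e-07). Gucy2c, the receptor guanylyl cyclase C, was at 32.6 and 26 CPM against 0, 0.397 and 0.739 CPM (log2 fold change 6.19 ± 0.40, adjusted p = 8.74e-08). Trpv1, the capsaicin receptor, was at 18.5 and 43.1 CPM against 0, 0.246 and 2.22 CPM (log2 fold change 5.47 ± 0.43, adjusted p = 6.84e-07). Fst (follistatin), an inhibitor of activins, had a log2 fold change of 5.00. Inhbb, an activin subunit, was at 49.1 and 37.2 CPM against 0.292, 1.23 and 2.22 CPM (log2 fold change 5.49 ± 0.33, adjusted p = 3.95e-08). An activin subunit and its inhibitor were thus both higher. Slc35d3 (5.53), Nrn1 (5.51), Ptprq (5.03), Adrb3 (5.01) and Mob3b (4.80) complete the 10 genes that the rule names. Nrn1 overlaps Fars2 on the opposite strand, with 251 and 1168 counts against 439 and 41. In the other direction Slc30a3, the vesicular zinc transporter, was at 0.905 and 0.449 CPM against 95.8, 106 and 127 CPM (log2 fold change -7.08 ± 0.27, adjusted p = 3.82e-10). Prox1 and Irx2, homeodomain factors, were at 1.81 and 1.79 CPM against 32.3, 79.1 and 154 CPM (log2 fold change -5.44 ± 0.47, adjusted p = 2.02e-06) and 1.36 and 0.449 CPM against 38.8, 47.1 and 58.8 CPM (log2 fold change -5.52 ± 0.31, adjusted p = 1.62e-08). Fign (-6.12), Asic4 (-6.21), Lhx1os (-5.43) and Six3os1 (-6.55, which overlaps Six3 on the opposite strand) were lower too. Sp9, Tfap2b and Mab21l2, transcription regulators, were at log2 fold changes of -7.48, -6.30 and -7.17. Each lost its call without the E16 VGAT+Pitx3 plate, at log2 fold changes of -8.45, -10.88 and -9.79. Tfap2b and Mab21l2 lost theirs without the P0 VGAT+Pitx3 plate as well, at -5.79 and -6.56. Sp9 overlaps Cir1 (61 and 235 counts against 1 and 956) and Mab21l2 overlaps Lrba (486 and 2076 against 1 and 688), both on the opposite strand.

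Whether the difference between the populations changed from E16 to P0 was asked with an interaction term, in which each stage has 1 VGAT+Pitx3 plate that is assumed to vary like the VGAT plates. edgeR called 0 of 14624 genes, with 957 at an unadjusted p under 0.05, and DESeq2 called 3 of 6683. The fits within a stage rest on the same assumption, since the VGAT+Pitx3 plate of a stage has no replicate; in them edgeR called 979 genes at E16 (1 plate against 4) and 506 at P0 (1 against 3). In these single-plate comparisons at E16 and at P0, in this order, 7 and 7 dopamine handling genes and 15 and 14 dopamine lineage factors were called higher, 18 and 16 GABA neuron factors were called lower, and edgeR called 0 of 77 oxidative phosphorylation genes at either stage.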

How the data were processed

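RNA of single sorted cells was sequenced on 9 plates by SORT-seq, which adds a molecular barcode to each transcript. The authors removed reads without a cell barcode, trimmed them and aligned them with STAR to the mouse genome (mm10, as the submitters' processing notes name both), and deposited 3 tables of expected counts per gene and well, of intronic, exonic and all reads. The deposited values are barcode counts corrected for barcodes used more than once: 51.7% of the nonzero values are not whole, and 100% lie within 0.001 of the correction for 4096 barcodes of 6 bases. The length of the barcode is given as 6 bases in the labels and as 4 in the study's methods, and the deposited values match 6. Whether counting used strand is not given in the sources used here. The table of all reads was used, and the exonic (spliced) one as an alternative. Its 3455 cell names are all distinct.

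ERCC spike-ins and 34 mitochondrial genes were left out of sums. The gene minimum was met by 2077 wells, of which the mitochondrial limit removed 5 and the count limit 37. No doublets were called apart from that upper limit. Expected counts were summed per plate, rounded to whole numbers, filtered with filterByExpr, scaled with TMM and fitted in R 4.3.3 by edgeR 4.0.16 (glmQLFit and glmQLFTest, stage and population as terms). DESeq2 1.42.0 and limma 3.58.1 served as alternatives, with Python 3.11.15, numpy 2.4.6, pandas 2.3.3, scipy 1.17.1 and matplotlib 3.10.9 for the rest. CPM are scaled to the plate's sum, adjusted by its TMM factor. Simulated counts of the population comparison had 14061 genes in the step. Of these the test called 83 of 100 changed by 1 on the log2 scale, 100 of 100 changed by 3 and 7 of 13861 unchanged. The simulation used a single dispersion for all genes, no stage effect and the same spread in both populations. Genes at low levels were not among those changed. Since the real genes differ in spread, these rates do not carry over to the real comparison.

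Genes described with their values are a fixed list, the 3 genes with the largest change in each direction in each class among called genes whose plates do not overlap, and the 10 in each direction in no class with a mean of at least 20 CPM in the higher population (unnamed gene models left out); other members given with a fold change alone were chosen after their values were seen. The members, gene lists and tests were chosen with earlier results of these data known. The alternatives were other tools, scalings, filters on genes and cells, spliced counts, plates thinned to the smallest sum, equal weight per cell, single stages, a replicate block and each plate left out. Added after seeing the data were the stage from the second plate label, no stage term, and leaving out cells with over 2 times the median counts of their plate. Some members of the classes are counted but not reported by name here.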

Additional observations from a re-analysis of the deposited data

Results flagged for a closer look

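Among the 4 VGAT plates at E16, the only group of at least 4 plates, 163 values were looked at and 11 had 1 plate set apart by a gap that is large for the range of the 4; chance alone gives about 1 in 20. On VGAT E16 replicate 1 these were Lmx1a at 3.45 CPM, En1 at 27.8 CPM, Gata2 at 142 CPM and Oprm1 at 12.8 CPM. On replicate 2 they were Dlx1 at 137 CPM and the summed microglia markers at 40.2 CPM. On replicate 4 they were Gabrq at 5.16 CPM, Nrp1 at 210.2 CPM and Prox1 at 154 CPM. The remaining 2, Chrm5 on replicate 1 (0.246 CPM) and the summed noradrenaline neuron markers on replicate 4 (0.198 CPM), are a single count against 0 on the other E16 VGAT plates and are below what a plate resolves. The VGAT+Pitx3 group has 1 plate a stage and could not be looked at in this way.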

How the results depend on the processing

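Over 25 settings, 97 of the 146 named genes past the threshold were past it in every setting that tested them (Oprm1 was tested in 24). Another 49 lost it in at least 1, and none of the 146 changed sign. Apart from the fixed list these genes were named for being called with plates that do not overlap, so stable signs follow from the selection. The limits on ribosomal protein and ERCC shares removed 0 cells, so that setting repeats the main fit. The other 4 named genes (Slc32a1, Dcc, Dscam and Calb1), past it in no setting, took both signs over the settings. Of the named genes 36 lost the threshold without the E16 VGAT+Pitx3 plate and 21 without the P0 one, against at most 3 without any single VGAT plate. With the P0 plates alone 35 lost it, with the E16 plates alone 18 and with a replicate block 16, Chrm5 (adjusted p 0.333; tested in 21 settings) among the last. The count of called genes ran from 625 to 1397 when 1 plate was left out, that of higher genes from 390 to 753 and that of lower genes from 235 to 644. With the P0 plates alone 506 genes were called, 302 higher and 204 lower. The interaction of stage and population had 0 called genes in edgeR, 3 in DESeq2 and 66 in edgeR without a filter on low counts; the cause was not tested. With equal weight per cell in limma 1220 genes were called, and the split turned to 523 higher and 697 lower (42.9% higher against 53.0%). The alternatives chosen after seeing the data gave 994 calls (stage from the second plate label), 951 (no stage term) and 1232 (without cells of over 2 times the median counts).

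A fit with the replicate number as a replicate block called 908 genes. Whether the numbers pair the plates is not known. Deviations of same-numbered VGAT plates correlated at 0.04, 0.07 and 0.05 across genes, and those of other pairs at -0.07 to 0.05. For each P0 plate the same-numbered E16 plate had the highest value, and correlations this small cannot decide the question. With 1 VGAT+Pitx3 plate a stage, the spread within that population at a stage is not measured, and genes at a few counts have no resolved fold change.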
